A study of Mus musculus with 12 samples.

Results

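The genes described here are 40 genes of DNA replication and S phase, chosen by name for their known part in copying the genome, out of the 39423 genes in the table of RNA sequencing counts from 3T3-L1 cells. All 40 names were found in the table, and all 40 passed the filter on low counts in every comparison. 3T3-L1 is a line of mouse preadipocytes, and DMI is the hormonal cocktail (dexamethasone, the phosphodiesterase inhibitor IBMX and insulin) that turns these cells into adipocytes once they have stopped at confluence. Cells had been transfected with a negative control siRNA (siCtrl) or with siRNA against PRMT1 (siPRMT1), an arginine methyltransferase, and both arms received DMI. RNA was sequenced after 24 hours (day 1) and 72 hours (day 3), with 3 libraries in each of the 4 conditions. All 12 libraries thus come from 1 cell line under DMI, the knockdown is a transient and partial one, the siRNA sequence used for sequencing is not given in the sources used here, and nothing in the labels says whether the 3 libraries of a condition are separate cultures, so p-values measure only the spread between these libraries.

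Confluent 3T3-L1 cells re-enter the cell cycle soon after DMI and pass through a short series of divisions, called mitotic clonal expansion (MCE), before they leave the cycle and fill with lipid. Each S phase begins with licensing: the origin recognition complex, Cdc6 and Cdt1 load the ring of Mcm2 to Mcm7 on DNA, and geminin blocks further loading. Kinases such as Cdc7 and cyclin E with its partner then fire the origins, Cdc45 and the GINS complex turn the MCM ring into a moving helicase, and polymerase alpha with primase, polymerase delta and polymerase epsilon copy the strands. Many of these genes are classical targets of E2F transcription factors, of which E2f1 and E2f2 are members of the set themselves. No library from before DMI or from the hours between both days was analysed here. The study placed day 1 in the MCE stage and day 3 in the differentiation stage. The start and the peak of MCE cannot be read from these values.

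The letters of E2F sites could be read in the promoters, and those of the 4 genes below are shown because they rank first by p in at least 1 comparison among members whose promoter holds such a site. Promoters are from RefSeq on GRCm38.p6, from 250 bases before to 50 bases after a start of the gene listed there. This need not be the outermost start of the gene. They are written 5′ to 3′ on the strand of the gene. Capitals mark matches to TTTCCCGC, TTTGGCGC, TTTGCCGC or TTTCGCGC or to the reverse complement of any of them. The E2f2 promoter shown lies at chr4:136172024-136172323 on the plus strand, and its match begins 39 bases after the start. A further E2f2 promoter, at chr4:136180532-136180831, held no match. That of Mcm6 lies at chr1:128359656-128359955 on the minus strand and holds 3 matches, 2 of which overlap. The Gins3 promoter lies at chr8:95633309-95633608 on the plus strand, with a match 41 bases before the start. The Pola1 promoter lies at chrX:93632106-93632405 on the minus strand, with a match 138 bases before the start used for it. The gene itself is listed from 93304766 to 93632387, so that start and the match, at 93632286 to 93632293, lie inside it.
E2f2: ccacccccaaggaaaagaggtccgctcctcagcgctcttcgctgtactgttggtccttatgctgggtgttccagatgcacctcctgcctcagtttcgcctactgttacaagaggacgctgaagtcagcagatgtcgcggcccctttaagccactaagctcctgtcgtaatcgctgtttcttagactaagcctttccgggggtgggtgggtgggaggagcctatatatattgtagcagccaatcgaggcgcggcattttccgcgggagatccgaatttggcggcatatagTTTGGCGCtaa
Mcm6: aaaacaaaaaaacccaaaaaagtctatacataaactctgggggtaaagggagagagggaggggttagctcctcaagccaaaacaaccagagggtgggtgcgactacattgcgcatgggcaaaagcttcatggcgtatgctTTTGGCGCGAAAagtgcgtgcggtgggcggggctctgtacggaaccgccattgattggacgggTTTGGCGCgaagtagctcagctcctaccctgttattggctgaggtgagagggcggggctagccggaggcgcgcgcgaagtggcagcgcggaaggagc
Gins3: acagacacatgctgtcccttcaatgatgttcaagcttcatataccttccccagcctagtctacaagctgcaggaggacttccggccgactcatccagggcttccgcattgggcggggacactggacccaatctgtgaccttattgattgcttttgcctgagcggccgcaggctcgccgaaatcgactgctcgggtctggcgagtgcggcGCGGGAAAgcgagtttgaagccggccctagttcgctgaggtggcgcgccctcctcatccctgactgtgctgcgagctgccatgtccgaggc
Pola1: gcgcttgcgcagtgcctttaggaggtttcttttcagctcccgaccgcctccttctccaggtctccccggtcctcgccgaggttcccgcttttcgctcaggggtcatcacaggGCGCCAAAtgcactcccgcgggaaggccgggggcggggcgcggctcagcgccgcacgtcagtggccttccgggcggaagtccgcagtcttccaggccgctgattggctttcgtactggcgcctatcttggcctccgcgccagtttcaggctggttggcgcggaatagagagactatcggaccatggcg

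A promoter was given for 31 of the 40 genes, and 13 of the 31 (41.9%) held at least 1 such match, against 2.6% of the 27025 genes in the whole promoter table. The other 9 are Gins1, Gins2, Gins4, Ccne2, Gmnn, Rfc2, Pole, Mcm4 and Prim2, which have no entry there. Some genes have several promoters, and a gene was counted where any of them held a match. The matching promoters of Cdc6, Orc1 and Lig1 lie wholly within the gene as listed. By promoter, 13 of the 37 of these genes (35.1%) held a match, against 2.26% of all 32851 promoters. The 13 genes were Cdc6, Cdt1, Orc1, Mcm3, Mcm5, Mcm6, Mcm7, Gins3, Pola1, Pold1, Rfc3, Lig1 and E2f2, so matches stood in nearly every step from licensing to joining. Of 44 other replication genes with a promoter, 38.6% held a match, and of 26 mitosis genes 7.69%. The pattern was the other way round for the letters TTTGAA, or TTCAAA on the other strand, known as the CHR element of genes of late cell cycle. These letters were in 19.4% of the 31 genes, 73.1% of the mitosis genes and 20.2% of all genes. CCAAT, on either strand, was in 58.1% of the 31 genes, 56.8% of the 44 other replication genes, 73.1% of the mitosis genes and 41.1% of all genes. A match is a run of letters and not a measured site of binding.

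The libraries held 15116462 to 42357137 counts on genes, of which the 40 genes took 0.343% to 0.452% as means of a condition. Levels are given as FPKM after TMM scaling, that is counts divided by listed gene length and by the library total, on the usual FPKM scale, with library sizes adjusted by the trimmed mean of M values. The targeted gene Prmt1 stood at 86.1, 86.5 and 96.2 in siCtrl and at 43.4, 38.2 and 40.5 in siPRMT1 libraries at day 1, and at 108, 121 and 139 against 61.2, 69.8 and 67.1 at day 3. The knockdown value at day 1 was -1.11 as a log2 difference (edgeR adjusted p = 9.8e-04, standard error 0.0758) and -0.88 at day 3 (standard error 0.0883, adjusted p = 1.2e-05). The library siCtrl replicate 3 of day 1 stood apart from the other 2 of its condition: genes of high GC content lay 0.413 higher on the log2 scale there, relative to genes of low GC content, than in the mean of its condition, while this value was between -0.276 and 0.140 in the other 11 libraries. Counts of calls over all 40 genes in a comparison that uses it are given with and without it. Some counts over smaller groups, and those of the markers below, are given only with it. The cells carried the markers of their label: the summed level of 8 preadipocyte markers went from between 2342 and 3008 at day 1 to between 1444 and 1960 at day 3, and that of 8 adipocyte markers went from between 111 and 162 to between 2131 and 2995. The adipocyte sum was lower in siPRMT1 than in siCtrl libraries at both days, 111 to 124 against 154 to 162 at day 1 and 2131 to 2352 against 2748 to 2995 at day 3. The preadipocyte sum was lower in siPRMT1 libraries at day 1, 2342 to 2499 against 2776 to 3008, and higher at day 3, 1917 to 1960 against 1444 to 1632, without overlap at either day. Vim was the largest part, with means of 950 in siPRMT1 against 1240 in siCtrl at day 1 and 1008 against 838 at day 3. At day 1, 6 of the 8 markers had a negative and 2 a positive sign, and 0 were called. At day 3, 7 were positive and 1 was called higher. In the interaction of siRNA and day, 4 of the 8 preadipocyte markers and 0 of the 8 adipocyte markers were called higher. The part of both sums in the results below was not tested. Markers of blood cells and macrophages summed to at most 6.57 with Ptprc listed at 0 in all 12 libraries, and those of endothelium to at most 0.886. The 5 epithelial markers summed to at most 0.139 at day 1 and to between 6.24 and 11.3 at day 3, which came from Krt8 and Krt18 with Epcam and Cdh1 at or near 0.

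**Figure D1:**
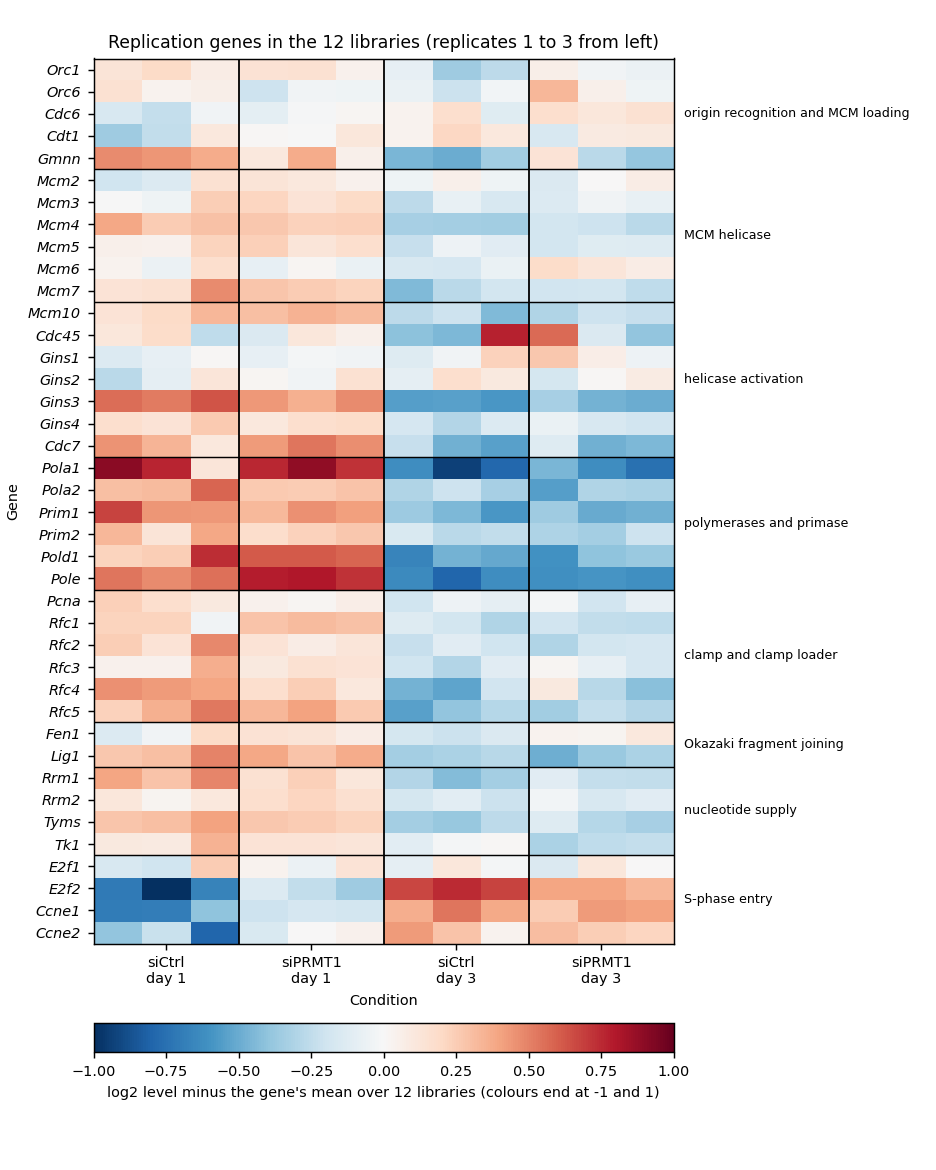
Levels of the 40 replication genes in the 12 libraries, grouped by role; colours give the log2 level minus the mean of the gene over all libraries, red above and blue below, with the colour scale ending at -1 and 1. Most rows turn from red at day 1 to blue at day 3 in both arms, strongest for the polymerases and primase, while E2f2, Ccne1 and Ccne2 run the other way.

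Levels of the 40 genes spanned a wide range at every day. Pcna, the sliding clamp that holds polymerases on DNA, was the highest, with a mean of 176 FPKM over all 12 libraries. It stood at 207, 197 and 188 in siCtrl and 180, 177 and 183 in siPRMT1 libraries at day 1, and at 152, 169 and 165 against 173, 154 and 165 at day 3. Rrm2 and Rrm1, the subunits of ribonucleotide reductase, and the MCM genes followed, with the 6 MCM ring genes between 55.4 and 85.9 FPKM. The lowest was Cdc45, at 0.558 FPKM, then E2f2 at 1.73 FPKM. Cdc45 is uncertain, because a further row for the same gene on an alternate scaffold took 42 to 105 counts a library against 15 to 60 counts in the Cdc45 row. It was kept as listed, and it was not called in any comparison, with or without the counts of the other row.

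The course from day 1 to day 3 was compared within each arm, to see how the replication genes stood as MCE gave way to differentiation. In siCtrl cells, 17 of the 40 genes were called lower and 3 called higher at day 3, where a call needs an adjusted p under 0.05 and a log2 fold change beyond 0.5 in either direction. Among all 13829 genes tested, 20.4% were called lower and 22.7% higher, so the share called lower was larger among the replication genes (42.5%) and the share called higher smaller (7.5%). The course of a gene is given below as its log2 fold change from day 1 to day 3. Its median was -0.35 over the 40 genes and 0.00 over all genes tested, and 30 of 40 had a negative sign. At any fold, 25 fell and 3 rose at an adjusted p under 0.05, against 28.7% and 30.2% of all genes. The libraries of day 1 and day 3 did not overlap in 33 of the 40, where 64.4% of all genes did not overlap. Without siCtrl replicate 3 of day 1, 14 were called lower and 3 higher (22.6% and 24.2% of all genes). At any fold, 26 then fell and 4 rose, beside 34.4% and 34.8% of all genes. Mcm7, Mcm10 and Prim2 stood without it at -0.45, -0.48 and -0.47 on the log2 scale, short of 0.5 but past the test. In a bulk sample, fewer cells in S phase and less RNA per cell cannot be told apart.

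In siPRMT1 cells, 13 of the 40 were called lower and 2 higher at day 3, against 17.4% and 19.0% of 14224 genes tested. The median was -0.33, beside 0.00 over all genes, and 32 of 40 had a negative sign. At any fold, 25 fell and 5 rose, where 31.2% and 32.2% of all genes passed. Of the 40, 30 had no overlap between the days, beside 66.7% of all genes. Both courses, which share no library, gave the same sign in 34 of the 40 genes: 28 lower in both and 6 higher in both. Across the 40 genes the log2 fold changes of both courses had a Pearson correlation of 0.897, a description over genes that are not independent replicates. Called lower in both were 12 genes, namely Pola1, Pola2, Prim1, Prim2, Pold1, Pole, Gins3, Mcm10, Cdc7, Rfc5, Lig1 and Tyms, and called higher in both were E2f2 and Ccne1. The same counts over all genes tested were not made, so how far this agreement differs from that of other genes is not known. Of the 12 genes called lower in both, Mcm10 and Prim2 were not called in siCtrl cells without siCtrl replicate 3 of day 1. The sum of the levels of the 40 genes was 1649 ± 86.7 (SD, n = 3) in siCtrl and 1629 ± 8.39 (SD, n = 3) in siPRMT1 libraries at day 1, and 1292 ± 29.6 (SD, n = 3) against 1338 ± 16.1 (SD, n = 3) at day 3. Every library of day 1 lay above every library of day 3 in that sum.

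**Figure D2:**
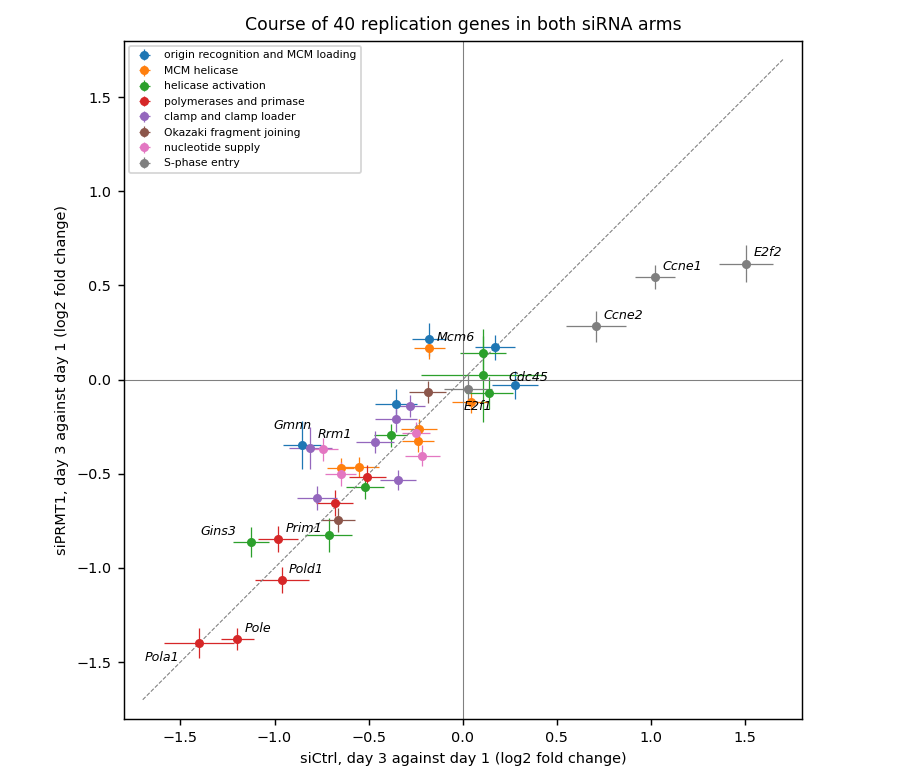
Log2 fold change from day 1 to day 3 in siCtrl (horizontal axis) against siPRMT1 cells (vertical axis) for the 40 genes, coloured by role, with standard errors as bars and equal change as the dashed line. The polymerases and primase sit at the lower left, E2f2, Ccne1 and Ccne2 at the upper right below the dashed line, and most licensing genes near 0.

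The polymerase and primase genes had the lowest median of the 8 role groups in each course, -0.97 in siCtrl and -0.95 in siPRMT1 cells. All 6 were called lower in both arms by edgeR with all libraries. Without siCtrl replicate 3 of day 1, Prim2 was not called in siCtrl cells, at -0.47, and limma with all libraries called 5 of the 6 in either course. Pole, the catalytic subunit of polymerase epsilon that copies the leading strand (chromosome 5, 110286319 to 110337468 on GRCm38.p6), stood at 15.7, 15.0 and 15.9 FPKM in siCtrl libraries at day 1 and at 6.95, 6.27 and 7.04 at day 3. In siPRMT1 libraries Pole stood at 18.7, 18.9 and 17.8 and then at 7.09, 7.19 and 7.10. The days were far apart in both arms, the course being -1.20 (standard error 0.0862, adjusted p = 1.7e-06) and -1.38 (standard error 0.0577, adjusted p = 1.5e-10). Pola1, the catalytic subunit of polymerase alpha, which extends the primers (chromosome X, 93304766 to 93632387), went from 20.1, 18.3 and 11.7 to 7.02, 5.64 and 6.26 FPKM in siCtrl libraries. Its low value of 11.7 was in siCtrl replicate 3, the library that stood apart. In siPRMT1 libraries Pola1 went from 18.2, 19.9 and 17.8 to 7.83, 7.01 and 6.44 FPKM. Pola1 had a course of -1.40 (standard error 0.185, adjusted p = 1.1e-04) in siCtrl and -1.40 (standard error 0.0785, adjusted p = 2.7e-09) in siPRMT1 cells, and without that library the siCtrl value was -1.61 (standard error 0.0891). The difference of both courses was 0.01 (standard error 0.217).

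Pold1, the catalytic subunit of the lagging strand polymerase delta (chromosome 7, 44532744 to 44548815), stood at 18.1, 18.3 and 25.8 FPKM in siCtrl and at 23.7, 23.8 and 23.2 FPKM in siPRMT1 libraries at day 1. At day 3 it was 9.82, 11.2 and 10.9 FPKM in siCtrl and 10.2, 11.7 and 11.98 FPKM in siPRMT1 libraries, lower than any library of day 1. Its course was -0.96 (standard error 0.141, adjusted p = 2.3e-04) in siCtrl and -1.06 (standard error 0.0694, adjusted p = 1.3e-08) in siPRMT1 cells. The value of 25.8 was in siCtrl replicate 3, and without that library the siCtrl course of Pold1 was -0.79 (standard error 0.0815). Prim1, the catalytic subunit of primase, which lays down the RNA primers (chromosome 10, 128015215 to 128030030), went from 50.2, 42.6 and 42.4 to 24.4, 23.0 and 21 FPKM in siCtrl libraries. In siPRMT1 libraries Prim1 went from 39.4, 43.2 and 41.8 to 24.6, 22.2 and 22.6 FPKM. The fall was -0.98 (standard error 0.107, adjusted p = 2.9e-05) and -0.85 (standard error 0.0696, adjusted p = 1.4e-07) on the log2 scale. Pola2, the partner subunit of Pola1, and Prim2, that of Prim1, fell less than their partners. The falls of Pola2 and Prim2 were 0.68 and 0.51 on the log2 scale in siCtrl and 0.65 and 0.52 in siPRMT1 cells.

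**Figure D3:**
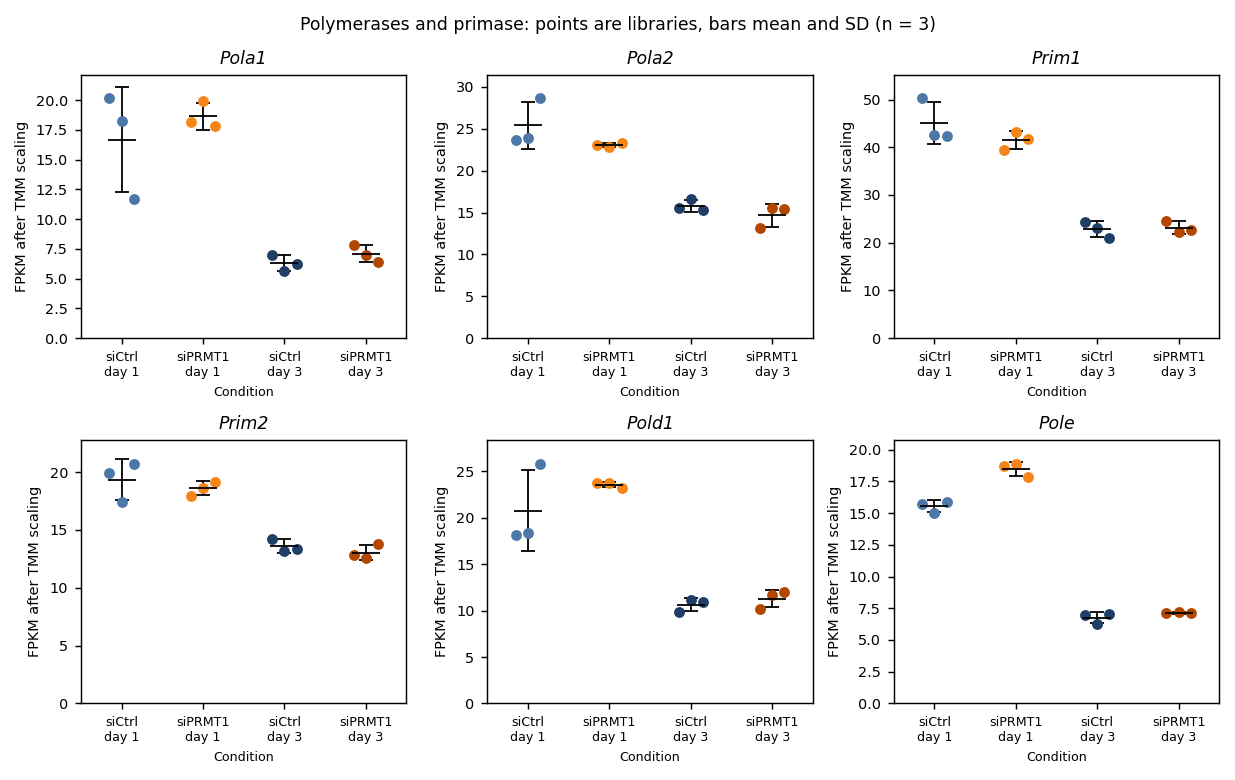
Levels of the 6 polymerase and primase genes, in FPKM after TMM scaling, by condition; each point is a library, and bars give the mean and SD (n = 3). All points of day 3 lie below all points of day 1 in each panel, and siCtrl replicate 3 of day 1 is the low point of Pola1 and the high point of Pold1.

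The helicase genes split. Among the 7 genes that activate the helicase, Gins3, Cdc7 and Mcm10 were called lower in both arms, while Gins1, Gins2 and Cdc45 did not pass the test in either. Without siCtrl replicate 3 of day 1, Mcm10 stood at -0.48 in siCtrl cells and was not called. Gins3, a subunit of the GINS complex (chromosome 8, 95633559 to 95645059), went from 12.9, 12.5 and 13.5 to 5.95, 5.99 and 5.82 FPKM in siCtrl libraries, and from 11.8, 11.1 and 12.1 to 6.90, 6.27 and 6.18 FPKM in siPRMT1 libraries. Its course was -1.13 (standard error 0.0970, adjusted p = 6.0e-06) in siCtrl and -0.86 (standard error 0.0803, adjusted p = 5.0e-07) in siPRMT1 cells. The other GINS subunits, which form 1 complex with Gins3, had siCtrl values of 0.11 for Gins1, 0.14 for Gins2 and -0.38 for Gins4, of which Gins4 passed at any fold. Of the 6 genes of the MCM ring, Mcm4 and Mcm7 were called lower in siCtrl cells and none in siPRMT1 cells. Mcm7 was not called without siCtrl replicate 3 of day 1, at -0.45, while Mcm4 was, at -0.67. For neither Mcm4 nor Mcm7 did the difference of both courses pass the test. Mcm4 (chromosome 16, 15623897 to 15637400) went from 85.3, 78.1 and 80.3 to 52.0, 51.7 and 51.4 FPKM in siCtrl libraries and from 78.9, 76.8 and 77.1 to 57.6, 56.6 and 54.4 FPKM in siPRMT1 libraries. The course of Mcm4 was -0.65 (standard error 0.0728, adjusted p = 3.6e-05) and -0.47 (standard error 0.0535, adjusted p = 3.8e-06). Mcm2 did not pass in either arm, at 0.04 and -0.12.

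Licensing genes had the median nearest 0 in both courses, -0.18 and -0.03. Of Orc1, Orc6, Cdc6, Cdt1 and Gmnn, only Gmnn was called, and only in siCtrl cells. Gmnn, which encodes the licensing inhibitor geminin (chromosome 13, 24751845 to 24761937), stood at 26.1, 25.5 and 24.3 FPKM in siCtrl libraries at day 1 and at 13.7, 13.4 and 14.8 FPKM at day 3. In siPRMT1 libraries the values were 20.3, 24.3 and 19.5 and then 20.7, 15.6 and 14.4 FPKM. Its siPRMT1 groups overlapped, and the course was -0.85 (standard error 0.101, adjusted p = 5.3e-05) in siCtrl and -0.35 (standard error 0.127, adjusted p = 0.0286) in siPRMT1 cells. The difference of both courses had an adjusted p of 0.0708. Cdt1, which loads the MCM ring and is held by geminin, stood at 25.2, 27.1 and 34.6 FPKM in siCtrl libraries at day 1 and at 33.0, 37.1 and 34.7 FPKM at day 3. The value of 34.6 was again in siCtrl replicate 3, and the course was 0.28 (adjusted p = 0.0743) with that library and 0.41 (adjusted p = 2.8e-04) without it.

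At the clamp and behind the fork, all 8 genes had negative signs in both courses. Rfc5, a subunit of the clamp loader (chromosome 5, 117379145 to 117389023), went from 44.6, 48.5 and 54.6 to 26.1, 28.9 and 31.2 FPKM in siCtrl libraries and from 47.8, 50.3 and 45.5 to 29.9, 32.2 and 31.0 FPKM in siPRMT1 libraries. The course of Rfc5 was -0.77 (standard error 0.107, adjusted p = 1.5e-04) and -0.63 (standard error 0.0632, adjusted p = 1.1e-06). Rfc1, the large subunit of the loader (chromosome 5, 65261852 to 65338617), stood at 34.0, 33.9 and 28.4 FPKM in siCtrl libraries at day 1 and at 26.6, 25.6 and 23.6 FPKM at day 3, beside 35.4, 36.2 and 35.5 and then 25.4, 24.5 and 24.3 FPKM in siPRMT1 libraries. It was called in siPRMT1 cells, at -0.53 (standard error 0.0539, adjusted p = 1.1e-06), and passed at any fold in siCtrl cells, at -0.34 (standard error 0.0961, adjusted p = 0.0112). The value of 28.4 was in siCtrl replicate 3 of day 1, and without that library the siCtrl course of Rfc1 was -0.44 (standard error 0.0712). The difference of both courses was then -0.13 (standard error 0.0832, adjusted p = 0.279). Rfc4 was called lower in siCtrl cells, at -0.81, with -0.36 in siPRMT1 cells. The difference of both Rfc4 courses did not pass the test, with or without siCtrl replicate 3 of day 1 (adjusted p = 0.0603 without it). Lig1, the ligase that joins Okazaki fragments (chromosome 7, 13277175 to 13311426), went from 31.1, 31.8 and 36.5 to 20.4, 20.8 and 21.4 FPKM in siCtrl libraries and from 33.8, 31.5 and 33.5 to 18.4, 20.0 and 20.8 FPKM in siPRMT1 libraries. The fall of Lig1 was -0.66 (standard error 0.0892, adjusted p = 1.3e-04) and -0.74 (standard error 0.0631, adjusted p = 1.9e-07), a difference of -0.07 (standard error 0.107) between the arms. Fen1, the flap nuclease of the same step, did not pass in either arm, at -0.19 and -0.06. Pcna had -0.28 (adjusted p = 0.0111) in siCtrl and -0.14 (adjusted p = 0.0528) in siPRMT1 cells.

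Genes that supply deoxynucleotides were lower at day 3, all 4 of them in siPRMT1 cells and 3 of them in siCtrl cells at any fold. Rrm1, the large subunit of ribonucleotide reductase (chromosome 7, 102441695 to 102469771), stood at 107, 99.4 and 114 FPKM in siCtrl libraries at day 1 and at 66.6, 60.4 and 64.3 FPKM at day 3. In siPRMT1 libraries Rrm1 stood at 90.5, 95.9 and 88.3 FPKM and then at 75.5, 68.9 and 68.7 FPKM. The siCtrl libraries thus began higher and ended lower, with a course of -0.74 (standard error 0.0796, adjusted p = 2.7e-05) against -0.37 (standard error 0.0605, adjusted p = 1.1e-04). Rrm2, the small subunit, fell by 0.25 and 0.28 on the log2 scale. Tyms, which makes thymidylate, was called lower in both arms, at -0.65 and -0.50, the latter just past the threshold on the fold. Tk1, which salvages thymidine, had -0.22 (adjusted p = 0.0717) in siCtrl and -0.40 (adjusted p = 2.2e-05) in siPRMT1 cells.

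Of the 4 genes of S-phase entry, 3 rose where most of the set fell. E2f2, an activating E2F transcription factor (chromosome 4, 136172274 to 136196057), stood at 0.975, 0.745 and 1.001 FPKM in siCtrl libraries at day 1 and at 2.53, 2.68 and 2.55 FPKM at day 3, from 77 to 199 and 202 to 307 counts a library. In siPRMT1 libraries E2f2 stood at 1.45, 1.34 and 1.24 FPKM and then at 2.09, 2.096 and 2.01 FPKM. It rose by 1.504 (standard error 0.142, adjusted p = 1.1e-05) in siCtrl and by 0.62 (standard error 0.0986, adjusted p = 9.3e-05) in siPRMT1 cells on the log2 scale. Ccne1, which encodes cyclin E1 (chromosome 7, 38097984 to 38107490), went from 20.0, 20.0 and 24.5 to 41.8, 46.9 and 42.1 FPKM in siCtrl libraries and from 28.0, 28.9 and 28.5 to 38.7, 43.5 and 42.8 FPKM in siPRMT1 libraries. All libraries of day 3 were above all of day 1, the course being 1.02 (standard error 0.106, adjusted p = 2.1e-05) and 0.54 (standard error 0.0632, adjusted p = 4.5e-06). Ccne2, which encodes cyclin E2 (chromosome 4, 11190433 to 11204779), went from 4.16, 4.69 and 3.16 to 7.35, 6.66 and 5.62 FPKM in siCtrl libraries and from 4.93, 5.50 and 5.64 to 6.79, 6.50 and 6.34 FPKM in siPRMT1 libraries. Ccne2 was called in siCtrl cells, at 0.71 (standard error 0.160, adjusted p = 0.00353), and passed at any fold in siPRMT1 cells, at 0.28 (standard error 0.0813, adjusted p = 0.00787). The value of 3.16 was in siCtrl replicate 3 of day 1. Without that library the siCtrl course of Ccne2 was 0.56 (standard error 0.120) and still called. The difference of both Ccne2 courses was then -0.31 (standard error 0.145, adjusted p = 0.129). E2f1, the other E2F of the set, did not pass in either arm, at 0.03 and -0.05.

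**Figure D4:**
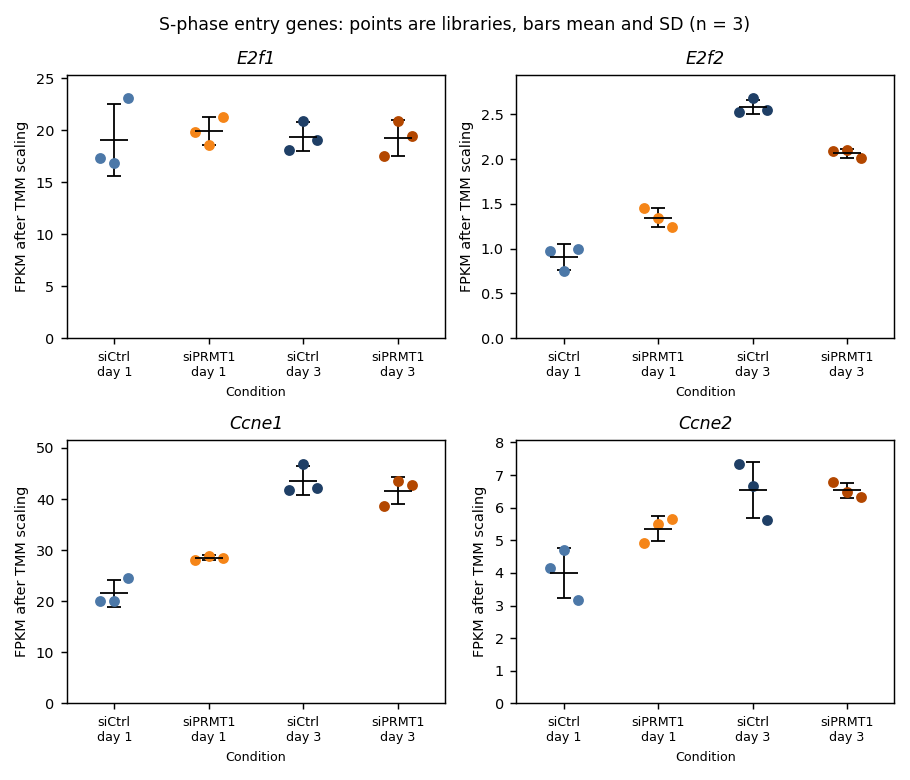
Levels of E2f1, E2f2, Ccne1 and Ccne2, in FPKM after TMM scaling, by condition; each point is a library, and bars give the mean and SD (n = 3). E2f2, Ccne1 and Ccne2 are lowest in siCtrl at day 1 and higher in both arms at day 3, and E2f1 overlaps across the 4 conditions.

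The effect of PRMT1 knockdown at day 1 was small for the set. Of the 40 genes, 1 was called higher in siPRMT1 than in siCtrl cells, E2f2, and 0 lower, beside 1.95% and 1.61% of 13689 genes tested. E2f2, at the levels above, was higher by 0.59 as a log2 difference, with a standard error of 0.142 and an adjusted p of 0.0418, and all 3 siPRMT1 libraries lay above the siCtrl libraries. At any fold, Ccne1, at 0.44 (standard error 0.0872, adjusted p = 0.0233), and Pole, at 0.28 (standard error 0.0628, adjusted p = 0.0346), also rose, which makes 3 higher and 0 lower beside 3.22% and 4.38% of all genes. Ccne2 had 0.45 (adjusted p = 0.113). An unadjusted p under 0.05 was reached by 6 of the 40, 4 of them higher, beside 24.6% of all genes. The median was 0.02 over the 40 genes and 0.01 over all genes, and in 14 of 40 both arms were apart without overlap, beside 31.3% of all genes.

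The E2f2 call rests on all 6 libraries but siCtrl replicate 3: it was lost without any of the other 5, with adjusted p from 0.0683 to 0.174, and kept without siCtrl replicate 3, at 0.63 (adjusted p = 0.00635). With siCtrl replicate 3 left out, 2 genes were called higher, E2f2 and Ccne1 (0.52, standard error 0.0612, adjusted p = 9.4e-05), and 0 lower, beside 3.61% and 2.65% of all genes. At any fold there were then 11 higher and 3 lower, beside 14.7% and 15.0% of all genes. Higher were E2f1, E2f2, Ccne1, Ccne2, Cdt1, Mcm2, Mcm3, Mcm10, Pold1, Pole and Fen1, and lower were Pcna, Rfc4 and Rrm1. Leaving out this library thus moved the number of passing genes from 3 to 14. The shares of all genes rose as well, from 3.22% higher and 4.38% lower to 14.7% and 15.0%.

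At day 3, 0 of the 40 were called in either direction, beside 2.84% higher and 3.80% lower of 14039 genes tested, and 8 had an unadjusted p under 0.05, beside 31.3% of all genes. DESeq2 and limma also called 0. Log2 fold changes ran from -0.31 to 0.28 with a median of 0.08, beside 0.01 over all genes, and 28 of 40 were positive. At any fold, 2 rose and 2 fell, beside 7.54% and 8.94% of all genes. Mcm6, a subunit of the MCM ring (chromosome 1, 128331575 to 128359705), stood at 49.5, 49.2 and 52.8 FPKM in siCtrl and at 62.7, 60.1 and 58.2 FPKM in siPRMT1 libraries, without overlap. It rose by 0.27 (standard error 0.0668, adjusted p = 0.0127). Fen1 (chromosome 19, 10199132 to 10204393) stood at 28.9, 28.1 and 29.5 FPKM in siCtrl and at 33.4, 33.2 and 35.1 FPKM in siPRMT1 libraries, and rose by 0.24 (standard error 0.0678, adjusted p = 0.0231). Tk1 (chromosome 11, 117815519 to 117826087) went the other way, at 47.5, 50.5 and 51.4 FPKM in siCtrl and 41.2, 42.9 and 43.3 FPKM in siPRMT1 libraries, and fell by 0.22 (standard error 0.0680, adjusted p = 0.0373). E2f2 fell by 0.31 (standard error 0.0967, adjusted p = 0.0396), the opposite direction to day 1. Between the siRNA arms, 9 of 40 had no overlap, beside 34.9% of all genes.

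**Figure D5:**
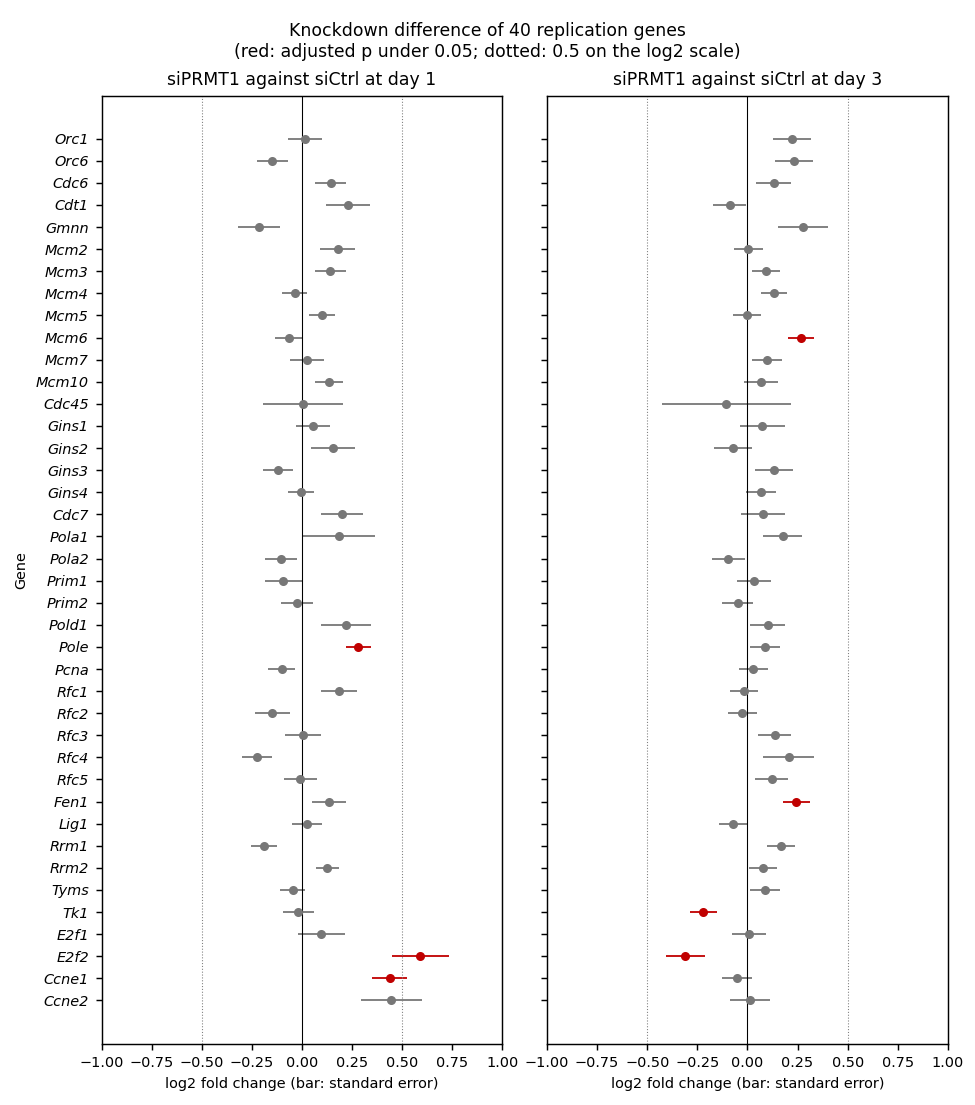
Log2 fold change of siPRMT1 against siCtrl at day 1 (left) and day 3 (right) for the 40 genes, with standard errors as bars; red points have an adjusted p under 0.05 and dotted lines mark 0.5 in either direction. At day 1 the red points are Pole, E2f2 and Ccne1, all higher, and at day 3 Mcm6 and Fen1 are higher and Tk1 and E2f2 lower.

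Whether knockdown changed the course was tested as the interaction of siRNA and day over all 12 libraries. E2f2 was the 1 gene of the 40 that was called, with a difference of -0.88 (standard error 0.162, adjusted p = 0.00308), beside 3.47% of 14612 genes called lower and 4.77% called higher. The rise of E2f2 from day 1 to day 3 was thus smaller in siPRMT1 cells, from a higher start to a lower end. With each of the 12 libraries left out in turn, the difference stayed between -0.95 and -0.81 and the call was kept. At any fold, Ccne1 was lower, at -0.47 (standard error 0.123, adjusted p = 0.0221), and Rrm1, at 0.38 (standard error 0.0973, adjusted p = 0.0206), and Mcm6, at 0.35 (standard error 0.0957, adjusted p = 0.0269), were higher, which makes 2 and 2 beside 4.63% lower and 7.69% higher of all genes. Rrm1 fell less in siPRMT1 cells, and Mcm6 had a course of -0.18 (adjusted p = 0.0862) in siCtrl and 0.17 (adjusted p = 0.0195) in siPRMT1 cells. Without siCtrl replicate 3 of day 1, E2f2, at -0.95, and Ccne1, at -0.60, were called lower and Gmnn, at 0.52, higher, beside 6.71% and 6.02% of all genes. At any fold, 6 were then lower and 4 higher, beside 13.2% and 11.8% of all genes, adding Cdt1, Mcm2, Pold1 and Tk1 on the lower side and Gmnn and Orc6 on the higher side. For the 6 polymerase and primase genes the interaction over all 12 libraries ran from -0.17 to 0.14, with 0 past the test in edgeR, 0 at an unadjusted p under 0.05, beside 27.3% of all genes, and 0 called by DESeq2 or limma. The range without siCtrl replicate 3 of day 1 was -0.30 to 0.19, and Pold1, at -0.30 (standard error 0.106, adjusted p = 0.0451), passed at any fold.

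Other genes of replication were read beside the 40. They are 50 genes named by their part in origins, forks, chromatin assembly and S-phase control, of which 49 were tested. The shares of all genes given above for each comparison are the background of these counts too. In siCtrl cells 18 were called lower and 3 higher at day 3, with a median of -0.39 (18 and 2 without siCtrl replicate 3 of day 1, with a median of -0.37), and in siPRMT1 cells 17 were called lower and 3 higher, with a median of -0.36. The smallest p in siCtrl cells had Dnmt1, the maintenance DNA methyltransferase, at -0.92, Mcm8, at -1.35, and Ccna2, which encodes cyclin A2, at -0.89. In siPRMT1 cells these were Dnmt1, at -1.03, Rbl1, a pocket protein that binds E2F, at -1.22, and Dbf4, the activator of Cdc7, at -1.06. Knockdown at day 1 gave 1 call in the list, Recql4, a helicase of replication initiation, which stood at 5.90, 5.52 and 6.47 FPKM in siCtrl and 8.59, 8.35 and 9.27 FPKM in siPRMT1 libraries and rose by 0.58 (standard error 0.0847, adjusted p = 0.00811). Orc5 fell by 0.38 and Mybl2 rose by 0.50 at any fold, where 2 of the list rose and 2 fell. Without siCtrl replicate 3 of day 1, Recql4, at 0.62, and Mybl2, at 0.60 (adjusted p = 9.6e-05), were called. At any fold 10 then rose and 7 fell, beside 14.7% and 15.0% of all genes. At day 3, 0 were called, 7 had an unadjusted p under 0.05, and DESeq2 and limma called 0 as well. Rnaseh2c fell by 0.45 and Nasp, a histone chaperone, rose by 0.34 at any fold, and Donson had 0.32 (adjusted p = 0.0521). The interaction called Recql4, at -0.63, and Mybl2, at -0.56, lower and Rpa3, of the single-strand binding complex, higher, at 0.73, and without siCtrl replicate 3 of day 1 these 3 were called again, with Rnaseh2b, at 0.56 (adjusted p = 0.0321), higher as well. At any fold, 2 genes were higher and 2 lower in the interaction with that library, and 5 and 7 without it.

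Mitosis genes were compared as the late part of the same cycle, with the shares of all genes given above as the background of each count. All 30 were called lower at day 3 in both arms, with medians of -1.48 in siCtrl and -1.27 in siPRMT1 cells, and all 30 were called lower in siCtrl cells without siCtrl replicate 3 of day 1 too, so their medians lay below the medians of the 40 replication genes. The summed level of the 30 was 2004 ± 45.3 (SD, n = 3) in siCtrl and 1852 ± 28.9 (SD, n = 3) in siPRMT1 libraries at day 1, and 832 ± 9.07 (SD, n = 3) against 833 ± 26.6 (SD, n = 3) at day 3. In siCtrl cells Bub1b, a kinase of the spindle checkpoint, had -1.54, Prc1 -1.60 and Anln, of the contractile ring, -1.57. In siPRMT1 cells Cenpf had -2.40, Cenpe, a kinetochore motor, -1.93 and Kif23, a motor of the midbody, -1.62. Knockdown gave 0 calls in this list at either day, with 6 and 8 genes at an unadjusted p under 0.05, and DESeq2 and limma also called 0. At any fold at day 1, Foxm1, a transcription factor of late cell cycle genes, rose by 0.35, while Ccnb2 and Ccnb1, which encode B-type cyclins, fell by 0.28 and 0.27. With Cdk1 also lower, this made 1 higher and 3 lower, with a median of -0.05 over the list. With siCtrl replicate 3 of day 1 left out, 2 rose and 8 fell at any fold, beside 14.7% and 15.0% of all genes. Then 0 were called, and the median was -0.12. At day 3 Nusap1 rose by 0.26 and Cdc20 fell by 0.21, and Prc1 had 0.21 (adjusted p = 0.0563). The interaction had 0 calls by edgeR, DESeq2 or limma and 8 genes at an unadjusted p under 0.05, with Cdk1 at 0.47, Ccnb1 at 0.41 and Prc1 at 0.31, each past the test at any fold, where 4 were higher and 0 lower. Without siCtrl replicate 3 of day 1, Nusap1, at 0.58 (standard error 0.103, adjusted p = 9.1e-04), was called higher, and at any fold 7 were higher and 4 lower.

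Promoters with and without an E2F match were last set beside the courses. The 13 genes with a match had medians of -0.35 in siCtrl and -0.26 in siPRMT1 cells, and the 18 genes with a promoter but no match had -0.31 and -0.37. Each set covered a wide range, from -1.40 for Pola1 to 1.504 for E2f2 among genes with a match in siCtrl cells. Knockdown medians were 0.10 and 0.00 at day 1 and 0.10 and 0.05 at day 3, with and without a match, as a description.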

How the data were processed

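mRNA of 3T3-L1 cells in 4 conditions was sequenced in 3 libraries each. The authors filtered reads (cutadapt 1.11) before mapping to mouse transcripts (HISAT2 2.1.0), and the deposited counts are whole numbers per gene without normalization; the submitters' processing notes also list mm10 and RSEM 1.2.6, and the counting step, strand setting and handling of shared reads are not given in the sources used here. The deposited FPKM values equal counts divided by listed length and library total, on the usual FPKM scale, to within 0.005, as recomputed.

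Here counts were fitted with edgeR 4.0.16 (R 4.3.3; quasi-likelihood test, filterByExpr, TMM), 6 libraries for each comparison of 2 conditions and 12 for the interaction, with p-values adjusted by Benjamini-Hochberg over all genes tested and a call needed an adjusted p below 0.05 together with a log2 fold change beyond 0.5 in either direction. Standard errors are the absolute log2 fold change over the square root of F. Scripts were tested on simulated data.

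Totals of 15116462 to 42357137 counts a library set the precision. Alternatives were DESeq2 1.42.0, RLE, other filters, a replicate block, all libraries in 1 model, limma 3.58.1 on log2(FPKM + 1) or + 0.1, removal of length trends, each library left out and, chosen after seeing the data, removal of GC and length trends and adding both Cdc45 rows. Replicates of a condition were never identical (chi-square per gene 4.14 to 50.6). Named in full are members called in a comparison, at most 8 by p, or the 3 of smallest p where fewer were called, and the members of highest and lowest level; of other lists, the 3 of smallest p. Ccne2, E2f1, Cdt1, Rfc4, the remaining polymerase subunits and others are named besides, chosen with their values known. Members and lists were chosen with earlier results of these data known. Knl1 stands as Casc5 in the table. GC content came from GENCODE M21 for 88.9% of 14612 genes and for all 40 members.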

Additional observations from a re-analysis of the deposited data

Results flagged for a closer look

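E2f2 stood out because its course differed between the siRNA arms by a test of that difference: the interaction of siRNA and day was -0.88 on the log2 scale (standard error 0.162, edgeR's quasi-likelihood test, adjusted p = 0.00308). Over the 11 alternatives other than leaving out a library, the difference ran from -0.90 to -0.55, with adjusted p from 6.6e-05 to 0.0115. Levels were low, with a mean of 0.907 FPKM in siCtrl and 1.34 FPKM in siPRMT1 libraries at day 1, and 2.58 and 2.07 FPKM at day 3. The sum of the adipocyte markers was lower in siPRMT1 libraries at both days, and that of the preadipocyte markers was lower at day 1 (2342 to 2499 against 2776 to 3008) and higher at day 3 (1917 to 1960 against 1444 to 1632). Their part in this result was not tested.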

How the results depend on the processing

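The replicate block changed no call, although Pole at day 1, past the test at any fold without it, had an adjusted p of 0.0527 with it: the numbers of called genes were 1 and 0 (day 1), 0 and 0 (day 3), 3 and 17 (siCtrl course) and 2 and 13 (siPRMT1 course) higher and lower, with and without it. Same-numbered libraries had correlations of -0.17 to 0.24, so the numbers were not taken as pairs.

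Without a threshold on the fold change, 3 genes were higher at day 1, 2 higher and 2 lower at day 3, 5 higher and 25 lower in the siPRMT1 course and 2 higher and 2 lower in the interaction. With limma on log2(FPKM + 1), log2(FPKM + 0.1) and log2(FPKM + 1) without a filter, 0 were higher at day 1, where edgeR called E2f2 alone, and the medians were 0.0790, 0.0798 and 0.0762 at day 1, -0.273, -0.281 and -0.266 in the siCtrl course and -0.0478, -0.0563 and -0.0430 in the interaction, whose lower calls were 2 in each. The siPRMT1 course had 1 higher call with log2(FPKM + 1), with or without a filter, and limma called 5 of the 6 polymerase and primase genes lower in either course. Removing length trends gave medians of -0.503 and -0.444 in the siCtrl and siPRMT1 courses and 1 higher call in the latter. Removing GC and length trends gave -0.464 and -0.459, 1 higher call in the siPRMT1 course, and 1 higher and 2 lower in the interaction. The interaction had 1 higher call with DESeq2 and with no filter on low counts. The causes were not tested. Adding both Cdc45 rows turned its siPRMT1 course from 0.02 to -0.16 (adjusted p = 0.3835).

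With 1 library left out at a time, higher calls at day 1 ran from 0 to 2 and the median from 0.0108 to 0.0821, highest without siCtrl replicate 3. Lower calls ran from 14 to 18 in the siCtrl course (median -0.450 to -0.370, each below the median with all libraries; averaged over these 6 fits, the values of all genes differed from those with all libraries by a median of -0.0302 with TMM and -0.00098 with RLE, and the cause of the lower medians was not tested) and from 11 to 15 in the siPRMT1 course (median -0.336 to -0.278). The interaction gave 0 to 2 higher and 1 to 2 lower calls, with a median of -0.0414 to 0.0406. Without siCtrl replicate 3 of day 1, 14 genes in place of 3 passed at day 1 at any fold. The shares of all genes moved too, from 3.22% higher and 4.38% lower to 14.7% and 15.0%. Cdc45 rests on 15 to 60 counts a library.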
